A study of Bos taurus with 15 samples.

Results

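PAM16 is a subunit of the motor that pulls newly made proteins into the mitochondrial matrix, and its transcript was followed here through the last day of oocyte development in the bovine dominant follicle. The gene was 1 row, ENSBTAG00000009200, of the 21218 genes in the deposited count table. Its symbol came from the study's list of genes that differed between dominant follicle oocytes and oocytes at the end of growth. That list pairs 1741 of 1829 Ensembl identifiers with a symbol, and rows of counts could be named only through it. PAM16 was chosen by its measured counts in these same oocytes, which were known to differ between time points, so its levels are described below without a test. The study profiled single oocytes of crossbred beef heifers whose cycles had been synchronised with a progesterone-releasing device, GnRH and prostaglandin, without stimulation by FSH. Each oocyte came from a different animal, and there were 3 groups: T1 (6 oocytes, 24 h before ovulation), T2 (4 oocytes, 19-23 h after oestrus was detected) and T3 (5 oocytes, 2 h before ovulation). Oocytes are named by group and number, as in T1.4. They came from animal trials whose assignment to single oocytes is not given in the sources used here. The titles of the T2 samples count 19 to 23 h back from ovulation, whereas their treatment labels count from oestrus, and the latter were used. T2 is thus timed from oestrus and T3 from ovulation, and their order in time is not given. Where a change from T2 to T3 is given below, it names the direction of the comparison only. T1 heifers were slaughtered a day earlier than the rest. Where T1 is compared with T2 or T3, time therefore cannot be told apart from the day of slaughter. A subgroup of heifers had been given an additional dose of GnRH. The study's wording ties this dose to T3, but it can also be read to include T2. If T3 alone received it, time cannot be told apart from the additional GnRH where T3 is compared with T1 or T2. If T2 received it too, the same holds where T1 is compared with T2 or T3.

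Nearly all mitochondrial proteins are encoded in the nucleus, made in the cytosol and carried across the outer membrane by the TOM complex and across the inner membrane by the TIM23 channel. Import into the matrix is driven by HSPA9, a mitochondrial chaperone that is held at the channel by TIMM44 and is switched on by the J-domain proteins DNAJC19 and DNAJC15. PAM16 has a J-like domain without the catalytic motif, pairs with those J proteins and regulates how they stimulate the chaperone. The fully grown oocyte holds a large stock of mitochondria that the embryo inherits, and its transcripts are maternal stores, because transcription has largely ceased by then. Smart-seq2 captures transcripts by their poly-A tail, so a change in tail length and a change in the amount of transcript cannot be told apart.

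Depth differed among the oocytes. The study's table of retained samples lists 11 of the 15, with total counts between 824854 and 4894970, and group means and tests below use these 11. The other 4 were T1.4, with 2874041 counts, and 3 of the T3 group, where the totals were 620910 for T3.1, 271763 for T3.3 and 175263 for T3.5. In T3.1 a single gene took 18.8% of the counts. Values of these 4 oocytes are given beside the rest and named each time. Of the oocyte markers considered, 5 of 15 could be named (FIGLA, KPNA7, NLRP5, OOSP2 and NOBOX), and their summed level was between 3306 and 15836 CPM (the count scaled to the total count of the library) in the 11 oocytes. OOSP2 was the largest part of this sum in each of them but T1.5. FIGLA alone ran from 19.6 CPM in T2.1 to 3056 CPM in T1.2, and NOBOX from 1.06 CPM in T3.2 to 24.9 CPM in T1.3. Of the markers of other cells, only STAR (1 of 16 for cumulus and granulosa cells) and SRGN (1 of 8 for leukocytes) could be named, and 0 of 4 for erythrocytes. In the 11 oocytes STAR had between 54.2 and 376 CPM and SRGN between 1.53 and 1100 CPM, and both lows were in T3.4, the oocyte with the highest level of PAM16. The part of other cells in the values of PAM16 was not tested. Symbols of the RefSeq annotation of ARS-UCD2.0 place PAM16 between GLIS2, whose span overlaps it, and CORO7. Whether counting used strand is not given in the sources used here, so reads of such neighbours could have been assigned to PAM16.

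In T1 the PAM16 transcript was present in all 6 oocytes, at levels that fell into a low and a higher range. The counts were 3 in T1.1, 30 in T1.2, 73 in T1.3, 88 in T1.4, 71 in T1.5 and 2 in T1.6. Relative to the total of each library these were 0.864 CPM in T1.1, 9.21 CPM in T1.2, 27.6 CPM in T1.3, 30.6 CPM in T1.4, 14.5 CPM in T1.5 and 2.42 CPM in T1.6. T1.1 and T1.6 were thus lower than the other 4. The exact Poisson 95% interval of T1.1, from 0.178 to 2.52 CPM, lay under those of these 4, the lowest of which began at 6.22 CPM in T1.2, whereas that of T1.6, from 0.294 to 8.76 CPM, reached into that of T1.2. These intervals cover counting error only, since the reads carry no molecular identifiers. The mean of the 5 listed oocytes was 10.9 ± 10.8 CPM (SD, n = 5), and T1.4, outside the table, was the highest of the 6.

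In T2 PAM16 was close to the limit of detection in every oocyte. The counts were 0 in T2.1, 1 in T2.2, 2 in T2.3 and 5 in T2.4, or 8 reads in 4 libraries. The levels were 0.351 CPM in T2.2, 1.25 CPM in T2.3 and 2.32 CPM in T2.4, and the count of 0 in T2.1 allows up to 2.80 CPM (3 counts of its total). The mean was 0.981 ± 1.04 CPM (SD, n = 4). All 4 were lower than T1.2, T1.3, T1.4 and T1.5, but the groups overlapped, since T1.1 lay below T2.3 and T2.4, and T1.6 (2.42 CPM) was barely above T2.4. On log2 CPM, scaled with TMM factors and a prior count of 2, the mean was 0.60 ± 0.83 (SD, n = 4) against 2.91 ± 1.67 (SD, n = 5) in T1, a difference of -2.31. With so few reads in T2 this size depends on the prior count, and it was -3.07 with a prior of 0.5 and -1.74 with a prior of 5.

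The T3 oocytes ranged from no PAM16 read to the highest level of the series. The counts were 129 in T3.2 and 1507 in T3.4, and 0 in the other 3. T3.2 had 45.5 CPM and T3.4 had 576 CPM, so both lay above the other 13 oocytes. Over the 10198 genes tested, 2.78% had both of these oocytes above the other 9 of the 11. PAM16 was the 285th most counted gene of T3.4 and the 3250th of T3.2, whereas its place in the T1 oocytes lay between 3509th in T1.4 and 9202nd in T1.6. The 3 oocytes at 0 are those of this group that the study's table does not list. A count of 0 allows up to 4.83 CPM in T3.1, 11.0 CPM in T3.3 and 17.1 CPM in T3.5, all under the level of T3.2. At the CPM of T3.2 their totals would have given 28.3, 12.4 and 7.98 counts.

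**Figure D1:**
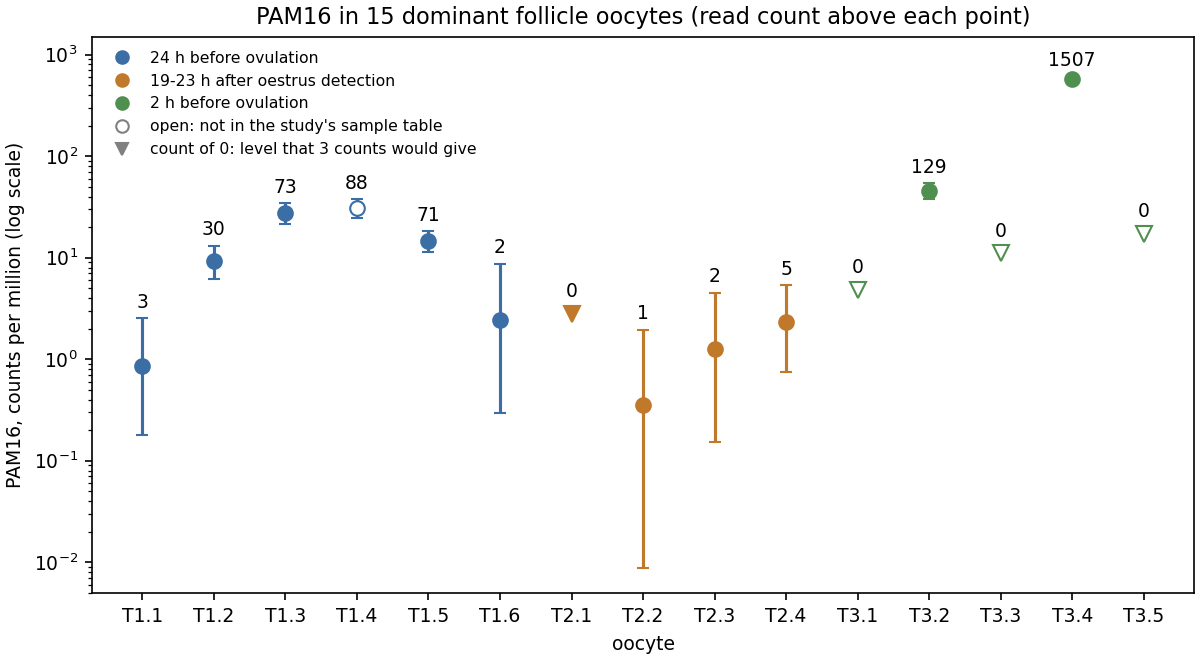
PAM16 in each of the 15 oocytes, in CPM on a log axis, with the read count above each point, exact Poisson 95% intervals as bars (counting error only), open symbols for the 4 oocytes outside the study's sample table and triangles for counts of 0 at the level that 3 counts would give. T3.4 (576 CPM) and T3.2 (45.5 CPM) are the highest, the T2 oocytes lie at or below 2.32 CPM or, for T2.1, under the limit of 2.80 CPM, and 3 of the 5 T3 oocytes have no read.

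The order of the levels therefore depended on which oocytes were counted. In the 11 listed oocytes the T3 mean was 7.57 ± 2.54 log2 CPM (SD, n = 2), higher by 4.66 than that of T1 and by 6.97 than that of T2. With all 15 oocytes, scaled without the filter on low counts, the first of these differences became -0.35 and the second 2.23. The median level of the 5 T3 oocytes was then 0 CPM against 11.9 CPM for the 6 of T1. The mean ran the other way, with 124 ± 253 CPM (SD, n = 5) in T3 against 14.2 ± 12.6 CPM (SD, n = 6) in T1. On the log scale every oocyte at 0 takes the same value, which the prior count sets whatever the depth of that oocyte's own library. T3.4 alone held 82.7% of the 1823 PAM16 counts of the 11 oocytes. Its level was 12.7 times that of T3.2 (exact 95% interval 10.6 to 15.3, counting error only), a spread within the group that 11.7% of the 10198 genes tested reached or passed in either direction between these oocytes. Without T3.4 the differences from the other time points were 2.87 and 5.14. Over the 11 oocytes the SD of PAM16 was 2.91 log2 CPM, the 10th largest of the 10198 genes, whose median SD was 1.26. Neighbours in the order of levels, T2 and T1, overlapped, as did T1 and T3 once all 15 oocytes were counted.

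The partners of PAM16 were read in the same libraries. Of 42 genes of mitochondrial import in the lists used, 9 could be named, including 3 of 7 motor subunits (PAM16, DNAJC15 and TIMM44), 2 of 6 genes of the TIM23 channel (TIMM17A and ROMO1), 1 of 9 small TIM and TIM22 genes (TIMM10), AIFM1 (1 of 3 intermembrane space genes), SAMM50 (1 of 4 outer membrane sorting genes) and MIPEP (1 of 4 processing and insertion genes). None of the 9 TOM genes had a symbol in the study's list, which holds 3 symbols that begin with TIMM and 0 that begin with TOMM. That list holds only genes the study called different in dominant follicle oocytes, so a gene without a symbol may still be expressed. The import genes named are thus a selected set, and the shares over all 10198 genes below are no like background for them. The 8 genes other than PAM16 were tested between time points with the quasi-likelihood test of edgeR over 10198 genes, with Benjamini-Hochberg adjustment, and a call needed an adjusted p under 0.05 and an absolute log2 fold change over 1.5. No import gene was called in any of the 3 comparisons, and neither was any other gene, so that the background was 0% of 10198 genes each time. At an unadjusted p under 0.05 the same test gave 1242 genes for T2 against T1, 927 for T3 against T1 and 1761 for T3 against T2. The likelihood ratio test of edgeR called 361, 139 and 701 of the same genes in these comparisons. DESeq2, which was given 14321 genes without the filter on low counts, called 469, 349 and 912.

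Among the motor subunits, DNAJC15 and TIMM44 differed in their pattern. DNAJC15 (ENSBTAG00000034785), the J protein with which PAM16 can pair, had 16.7, 216, 36.7, 217 and 44.9 CPM in T1.1, T1.2, T1.3, T1.5 and T1.6. The 4 T2 oocytes had 10.3, 40.3, 17.6 and 11.1 CPM in order of number, and there were 128 and 194 CPM in T3.2 and T3.4. These T3 oocytes were thus above all of T2, while T1 overlapped both. The log2 fold change was -2.77 ± 0.85 (SE) from T1 to T2 (edgeR adjusted p = 0.174, between 0.0200 and 0.548 over the alternatives) and 3.33 ± 0.97 from T2 to T3 (edgeR adjusted p = 0.0948, between 0.0154 and 0.501). DESeq2 and the likelihood ratio test of edgeR called both differences. TIMM44 (ENSBTAG00000015567), which anchors the chaperone at the channel, had means of 46.1 ± 32.3 CPM (SD, n = 5), 43.7 ± 17.3 CPM (SD, n = 4) and 35.5 ± 3.71 CPM (SD, n = 2) in T1, T2 and T3. Its groups overlapped throughout, with log2 fold changes of -0.16 for T2 against T1 (95% interval -1.43 to 1.1005), -0.12 for T3 against T1 (-1.70 to 1.46) and 0.04 for T3 against T2 (-1.58 to 1.67). Such intervals do not show that TIMM44 stayed level, as they include changes of more than 1 log2 unit in each direction.

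In the TIM23 channel a similar contrast was seen. ROMO1 (ENSBTAG00000027361), a small inner membrane protein associated with the channel, had 88.7, 1591, 292, 1384 and 133 CPM in T1.1, T1.2, T1.3, T1.5 and T1.6. The 4 T2 oocytes had 26.1, 54.7, 79.0 and 84.4 CPM in order of number, and there were 750 and 866 CPM in T3.2 and T3.4. Every T2 oocyte was below every listed oocyte of both other groups. Of the 8 import genes it was the only one with this separation from T1, which 2.3% of the 10198 genes showed in that direction, whereas ROMO1, DNAJC15 and TIMM10 were the 3 of 8 with both listed T3 oocytes above the 4 of T2, against 16.3% of the genes tested. The log2 fold change of ROMO1 was -3.91 ± 0.93 (SE) from T1 to T2 (edgeR adjusted p = 0.132, between 0.000721 and 0.519 over the alternatives) and 4.05 ± 1.03 from T2 to T3 (edgeR adjusted p = 0.0713, between 0.00345 and 0.383). TIMM17A (ENSBTAG00000047059), a core subunit of the channel, had means of 30.8 ± 18.9 CPM (SD, n = 5), 30.4 ± 6.66 CPM (SD, n = 4) and 17.4 ± 12.7 CPM (SD, n = 2). Its log2 fold changes were -0.24 (95% interval -1.65 to 1.17), -0.72 (-2.54 to 1.104) and -0.48 (-2.33 to 1.38) for the comparisons in the order given for TIMM44, and its groups overlapped.

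TIMM10 (ENSBTAG00000024701), a chaperone of the intermembrane space that guides hydrophobic proteins to the inner membrane, had a pattern like that of DNAJC15 and ROMO1. It had 22.8, 640, 274, 570 and 144 CPM in T1.1, T1.2, T1.3, T1.5 and T1.6, then 33.6, 53.3, 42.0 and 90.9 CPM in the 4 T2 oocytes in order of number, and 424 and 562 CPM in T3.2 and T3.4. T1.1 was below all 4 T2 oocytes, and the other listed T1 oocytes were above them. The log2 fold change was -2.89 ± 0.80 (SE) from T1 to T2 (edgeR adjusted p = 0.150, between 0.00767 and 0.520 over the alternatives) and 3.49 ± 0.91 from T2 to T3 (edgeR adjusted p = 0.0784, between 0.00600 and 0.468). The remaining import genes that could be named had low levels. SAMM50, which inserts barrel-shaped proteins in the outer membrane, lay between 0 and 18.3 CPM in the 11 oocytes, AIFM1, a partner of the disulphide relay CHCHD4, between 2.76 and 17.4 CPM, and MIPEP, a peptidase that trims imported precursors, between 0.614 and 15.5 CPM. Their 9 log2 fold changes lay between -0.83 and 1.88, with edgeR adjusted p values between 0.743 and 0.981.

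**Figure D2:**
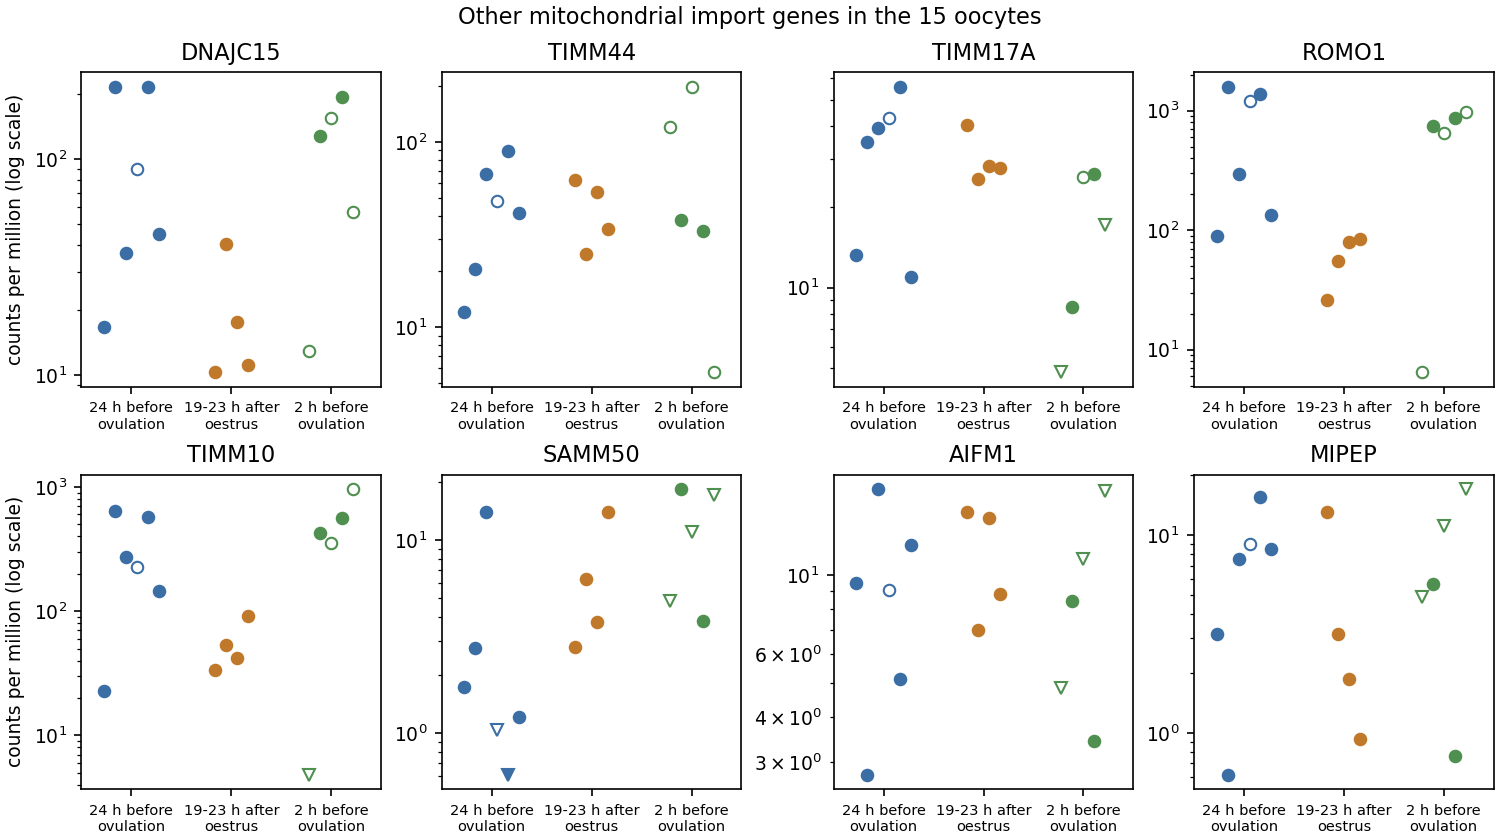
The 8 other import genes in the 15 oocytes, in CPM on log axes that differ between panels, with open symbols for the 4 oocytes outside the study's sample table and triangles for counts of 0 at the level that 3 counts would give. DNAJC15, ROMO1 and TIMM10 are higher in T3.2 and T3.4 than in all 4 T2 oocytes, whereas the groups of the other 5 genes overlap.

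Over the 8 genes, 3 had an unadjusted p under 0.05 for a lower level in T2 than in T1 (DNAJC15, ROMO1 and TIMM10) and 0 for a higher one, where the background was 9.41% of 10198 genes lower and 2.77% higher. The same 3 genes had such a p for a higher level in T3 than in T2, with 0 lower, against 9.03% of genes higher and 8.24% lower. Between T3 and T1, 0 of 8 had such a p, against 1.62% of genes higher and 7.47% lower. The median log2 fold change of the 8 genes was -0.45 in the first comparison, where that of all genes was -0.20, 0.55 in the second, against -0.10, and 0.01 in the third, against -0.21. The comparisons share oocytes and are not independent of each other. The 8 genes come from the study's list of differing genes, which was called in part on these same oocytes, whereas the background holds all genes tested. These shares are therefore not a like comparison.

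**Figure D3:**
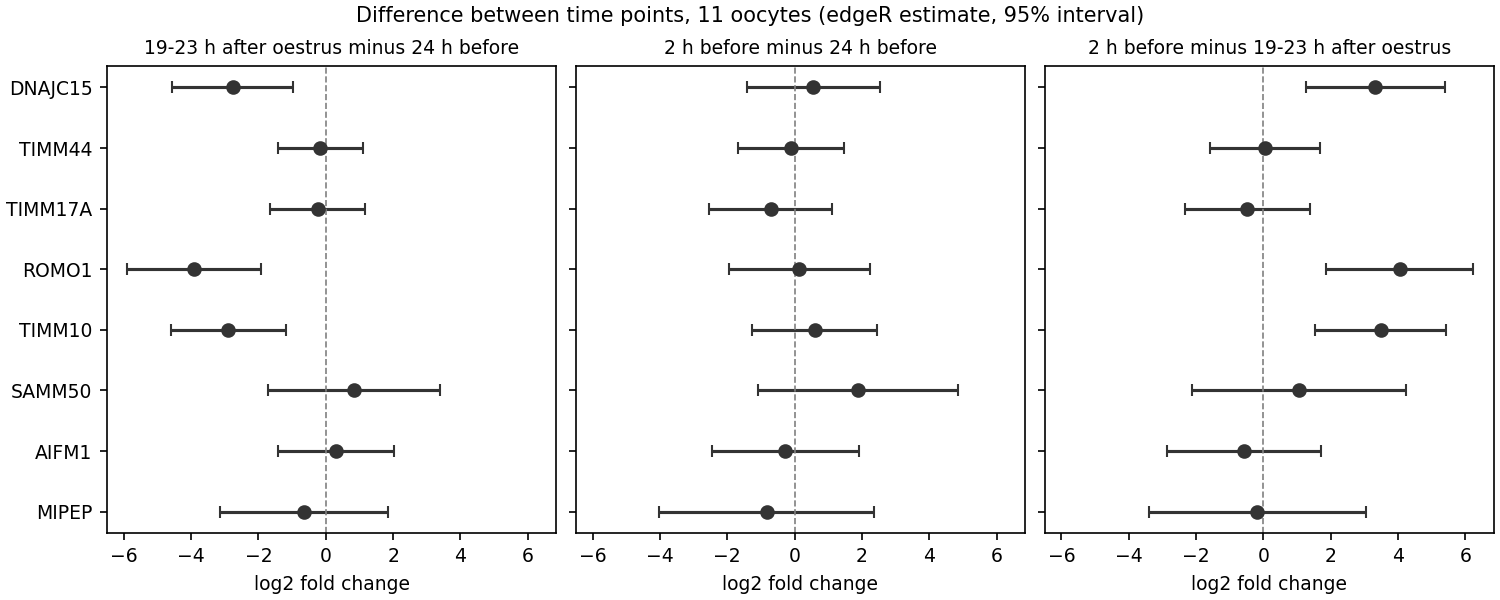
Log2 fold change of the 8 import genes other than PAM16 in each comparison of time points, as estimated by edgeR from the 11 listed oocytes, with 95% intervals as bars and a dashed line at no difference. The intervals of DNAJC15, ROMO1 and TIMM10 exclude 0 in both comparisons with T2 before adjustment over 10198 genes, and no gene is called after it.

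Set against these partners within the same oocyte, PAM16 stood out in T3.4. Per 100 counts of TIMM10 there were 3.80 counts of PAM16 in T1.1, 1.44 in T1.2, 10.1 in T1.3, 13.5 in T1.4, 2.55 in T1.5 and 1.68 in T1.6. In the T2 oocytes there were 0, 0.658, 2.99 and 2.55, and in T3.2 and T3.4 there were 10.7 and 103. This ratio does not depend on how the libraries were scaled. T3.2 was thus above the listed T1 oocytes but below T1.4, and T3.4 was above all others. Per 100 counts of DNAJC15 the ratio was 35.6 in T3.2 and 297 in T3.4, against 4.26 to 75.3 in the T1 oocytes. From T3.2 to T3.4 the level of TIMM10 went from 424 to 562 CPM, that of ROMO1 from 750 to 866 CPM and that of DNAJC15 from 128 to 194 CPM.

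The oocytes without a PAM16 read were not all poor in these partners. T3.3 had 353 CPM of TIMM10, 655 CPM of ROMO1 and 155 CPM of DNAJC15, and T3.5 had 964, 981 and 57.1 CPM of them, from 96, 178 and 42 counts and 169, 172 and 10 counts. The levels of TIMM10 and ROMO1 in both were above those of all 4 T2 oocytes. T3.1 differed, with 0 counts of TIMM10, 4 of ROMO1 and 8 of DNAJC15, but 75 counts of TIMM44 (121 CPM), above every listed oocyte. T1.4 had 227 CPM of TIMM10, 1204 CPM of ROMO1 and 90.1 CPM of DNAJC15, within the range of the listed T1 oocytes. T3.3 and T3.5 were the shallowest libraries, and the part of depth and RNA quality in their counts of 0 was not tested.

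Across the 11 listed oocytes the level of PAM16 varied together with that of some of the import genes. Pearson's r of log2 CPM with PAM16 was 0.83 for TIMM10, 0.79 for ROMO1 and 0.75 for DNAJC15, and it was 0.26 for TIMM44, 0.21 for SAMM50, 0.12 for TIMM17A, -0.19 for MIPEP and -0.54 for AIFM1. Spearman's rho was 0.83, 0.81 and 0.60 for the first 3. Without T3.4 and T3.2, the oocytes farthest from the median of PAM16, r was 0.88 for TIMM10, 0.86 for ROMO1 and 0.69 for DNAJC15 over 9 oocytes. With all 15 oocytes it was lower, at 0.54 for TIMM10, 0.62 for ROMO1 and 0.62 for DNAJC15. It was then 0.40 for TIMM17A, 0.32 for SAMM50 and 0.06 for TIMM44, and the sign changed for AIFM1 (0.31) and MIPEP (0.27). These are descriptions over cells that share their time points and library preparation, in a gene chosen for its pattern, and the median r of all 10197 other genes was -0.08. Of these genes 1.35% had a higher r than TIMM10, 2.52% than ROMO1 and 4.49% than DNAJC15.

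PAM16 was also set beside the mean of 13 genes of the respiratory chain and ATP synthase, machinery that PAM16 helps to supply. These were COX6C, COX6A1, COX7A1, COX7A2, UQCRQ, UQCRH, UQCR11, NDUFA7, NDUFB6, NDUFB8, ATP5PO, ATP5F1E and ATP5MF, all in the study's list of differing genes. They are a chosen part of such genes in that list, which also holds ATP5ME, a subunit of the ATP synthase named below. This respiratory mean correlated with PAM16 with r = 0.80 over the 11 oocytes and 0.79 without T3.2 and T3.4. Its r with all 15 oocytes and a background for such a mean were not computed. T3.4 had the highest PAM16 (9.37 log2 CPM) and the second highest respiratory mean (10.37), whereas T1.2 had the highest respiratory mean (10.99) with 3.83 log2 CPM of PAM16. T1.1 and T1.6, the low pair of T1, ranked 5th and 7th of 11 by the respiratory mean, on each side of T1.3, which ranked 6th by that mean and 3rd by PAM16.

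**Figure D4:**
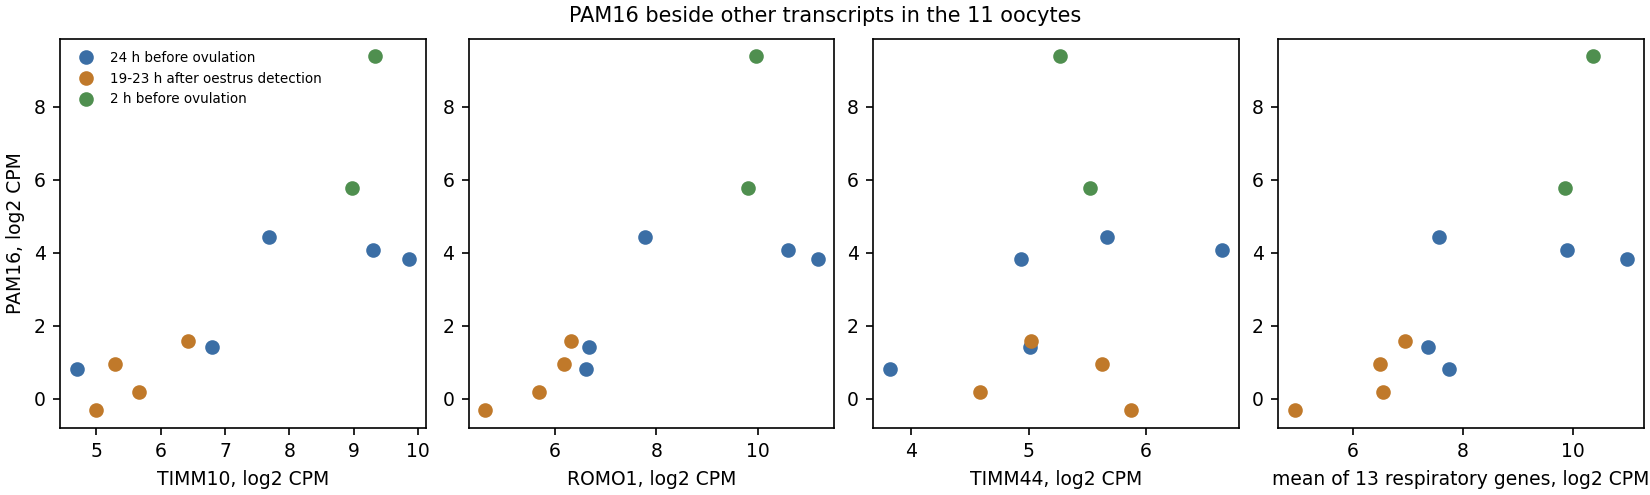
PAM16 against TIMM10, ROMO1, TIMM44 and the mean of 13 respiratory chain and ATP synthase genes in the 11 listed oocytes, both axes in log2 CPM, coloured by time point. PAM16 rises with TIMM10 (r = 0.83), ROMO1 (0.79) and the respiratory mean (0.80), and less so with TIMM44 (0.26), and T3.4 lies highest on the PAM16 axis in each panel.

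Among the 1663 named genes compared, those most like PAM16 over the 11 oocytes were INPP5F, an inositol phosphatase, with r = 0.95, RSPO2, a secreted enhancer of Wnt signalling made by oocytes, with 0.95, EPHA6, an ephrin receptor, with 0.88, ATP5ME, a subunit of the ATP synthase, with 0.88, and CUBN, an endocytic receptor, with 0.88. Their counts in T3.2 and T3.4 were 1329 and 3954 for INPP5F, 1816 and 5431 for RSPO2, 411 and 1089 for EPHA6, 1107 and 3075 for ATP5ME and 67 and 105 for CUBN. Each was thus more abundant in T3.4 than in T3.2, as PAM16 was, but by less. Without these oocytes r was 0.87, 0.87, 0.71, 0.87 and 0.73 for these genes in that order. It was thus lower for all but ATP5ME, where it barely changed, and 0 of the 5 were still among the 5 most like. With all 15 oocytes r was 0.88 for INPP5F, 0.67 for RSPO2, 0.56 for EPHA6, 0.61 for ATP5ME and 0.42 for CUBN, and 1 of the 5 kept its place. Only genes of the study's list could be named, and genes without a symbol ranked among these. Of all 10197 other genes tested, 14 had an r over 0.9 in the 11 oocytes. A higher r than that of EPHA6, ATP5ME and CUBN was found in 0.19%, 0.25% and 0.26% of them.

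At the other end, DLG1, a scaffold protein of cell junctions, had r = -0.92 with PAM16, as had ZNRF2, a ubiquitin ligase, and DNAJC21, a J protein of ribosome assembly. DNAJC21 had 4 counts in T3.4 and 67 in T3.2, against 124 to 724 in the T2 oocytes and 77 to 303 in the 5 listed T1 oocytes. Without T3.2 and T3.4 r was -0.78 for DLG1, -0.75 for ZNRF2 and -0.73 for DNAJC21, and with all 15 oocytes it was 0.06, -0.07 and -0.25.

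**Figure D5:**
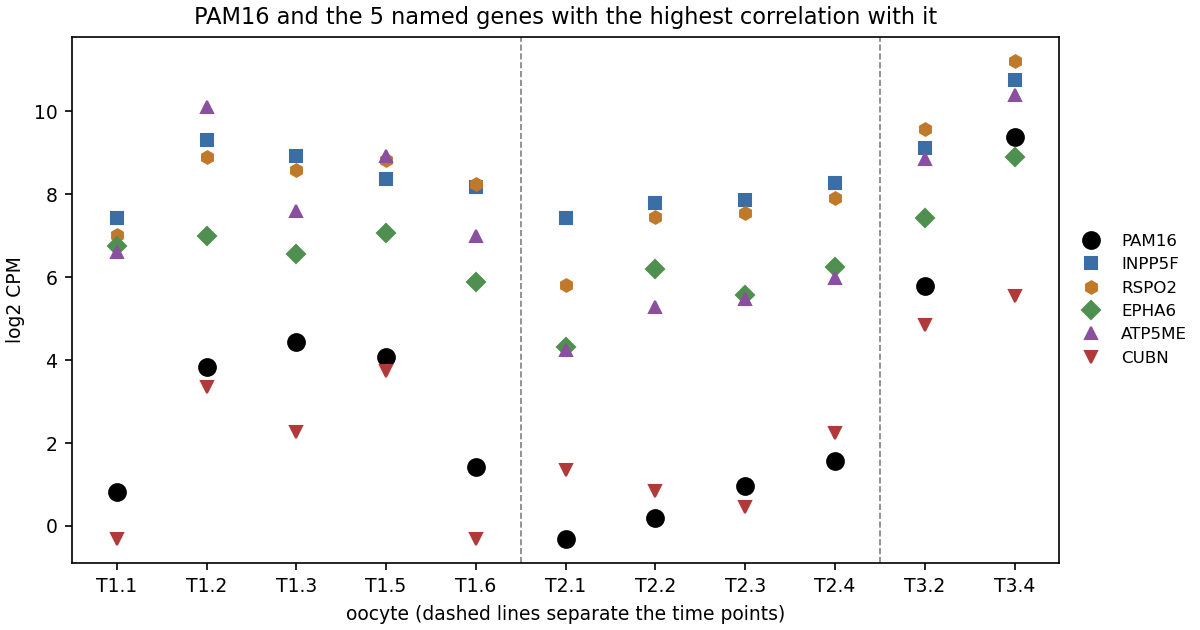
Log2 CPM of PAM16 (black circles) and of the 5 named genes with the highest Pearson correlation with it, in the 11 listed oocytes, with dashed lines between the time points. All 6 are highest in T3.4, where PAM16 reaches 9.37 log2 CPM, and the other 5 span a smaller range.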

How the data were processed

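Smart-seq2 libraries of 15 single oocytes were sequenced as single 75 bp reads. The authors trimmed them with Trim Galore (0.6.6 in the submitters' processing notes), aligned them with HISAT2 against ARS-UCD1.2 and quantified genes in SeqMonk, and the deposited values are counts of reads by Ensembl identifier, without normalization. The annotation release, strandedness and handling of duplicates are not given in the sources used here. All 15 columns matched a sample title, and 0 were left over.

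From the counts, time points were compared through the quasi-likelihood test of edgeR 4.0.16, run in R 4.3.3, in 1 fit of the 11 listed oocytes, with filterByExpr, TMM factors (0.690 to 1.34) and Benjamini-Hochberg adjustment over 10198 genes. SE was the fold change over the root of F, and intervals used the t distribution. CPM per oocyte used total counts, and log2 CPM used TMM and a prior count of 2. DESeq2 1.42.0 and other settings were alternatives. The procedure was run on simulated counts with a dispersion of 0.1 and log2 changes of 4 in 200 genes, and it recovered 100% of them. That spread was set and not taken from the oocytes, so recovery at their own spread was not tested. PAM16, the gene lists and the rule for naming genes (TIMM and TOMM symbols, motor partners, the 5 most and 3 least correlated named genes) were chosen with earlier results of these data known. Python 3.11.15 with scipy 1.17.1 was used. The authors' own fold changes and p-values in the supplementary gene list were not used, and it served for symbols only. No sequence of PAM16 was used here.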

Additional observations from a re-analysis of the deposited data

Results flagged for a closer look

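PAM16 in T1.4 was singled out because the study's sample table does not list this oocyte and its level, 30.6 CPM from 88 counts, was well above the limit that a count of 0 allows. It was the highest of the 6 T1 oocytes. The 9 import genes, PAM16 included, were also examined in the listed oocytes of T1 and T2, 18 groups in all, for a single oocyte far from the others, and 0 were found, where chance gives about 1 in 20. T3, with 2 listed oocytes, is too small for this and was not examined.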

How the results depend on the processing

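In the 11 listed oocytes the PAM16 differences on log2 CPM kept their direction in every setting run, but their size depended on the prior count. With a prior of 0.5 and of 5, in place of 2, the difference was -3.07 and -1.74 between T2 and T1, 4.88 and 4.36 between T3 and T1, and 7.95 and 6.10 between T3 and T2. With all 15 oocytes the difference between T3 and T1 became -0.35 and that between T3 and T2 2.23. That setting added 3 oocytes at 0 to T3 and T1.4, the highest of its group, to T1. It also left out the filter on low counts, so the TMM factors rested on other genes. The shares of these changes in the shift were not separated. With each oocyte left out the difference between T2 and T1 ran from -2.82 to -1.85, that between T3 and T1 from 2.87 to 6.46 and that between T3 and T2 from 5.14 to 8.70, the last 2 lows without T3.4 and the highs without T3.2.

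Calls depended on tool and filter, and the cause was not tested beyond the change in genes tested. Of the 8 import genes, between T2 and T1, 0 were called, against 2 without a filter, 2 with at least 10 counts in every oocyte (where only ROMO1, DNAJC15, TIMM44 and TIMM10 were tested), 3 by DESeq2, 3 by the likelihood ratio test and 0 to 3 with each oocyte left out (3 without T1.1). Between T3 and T2, 0 were called, against 3, 2, 3 and 3 in these settings and 0 to 2 with each oocyte left out (2 without T1.1 or T1.2). All these calls were of ROMO1, TIMM10 or DNAJC15. Without a filter, and by DESeq2, 14321 genes entered, with at least 10 counts 4161, and otherwise 10198 for the 11 oocytes. Over all genes, calls between T2 and T1 were 0, against 234 without a filter, 158 with at least 10 counts, 469 by DESeq2, 361 by the likelihood ratio test and 0 to 376 with each oocyte left out (376 without T1.1). Between T3 and T1 they were 0, against 1 without a filter, 349 by DESeq2, 139 by the likelihood ratio test and 0 to 15 with each oocyte left out (15 without T1.2). Between T3 and T2 they were 0, against 371, 214, 912 and 701 in the order of the first comparison, 17 with RLE factors, 1 with the replicate block and 0 to 403 with each oocyte left out (403 without T1.2, 316 without T1.1, 94 without T3.2). The single calls without a filter between T3 and T1 and with the block between T3 and T2 were of PAM16 itself, which was chosen by its counts in these oocytes, so they restate that choice and are no test of it. A lone T3 oocyte, left when T3.2 or T3.4 is dropped, was assumed to vary like the other groups.

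Small differences of import genes changed sign with no call on either side. With each oocyte left out, TIMM17A ran from -0.48 to 0.12, TIMM44 from -0.40 to 0.36 and MIPEP from -1.72 to 0.066 between T2 and T1. Between T3 and T1 ROMO1 ran from -0.15 to 1.00, TIMM44 from -0.35 to 0.41 and AIFM1 from -1.13 to 0.21. Between T3 and T2 TIMM44 ran from -0.22 to 0.16, SAMM50 from -0.63 to 1.70 and MIPEP from -2.35 to 0.91. With all 15 oocytes ROMO1 was -0.37 and TIMM44 1.01 between T3 and T1, and SAMM50 -0.095 between T3 and T2. Same-numbered oocytes came from different animals, and deviations from their group means had r from -0.02 to 0.14 over the pairs of listed oocytes, so they share only a number. With the replicate block TIMM44 was 0.56 and MIPEP 0.78 between T2 and T1, ROMO1 -0.15, TIMM44 0.91, AIFM1 0.52 and MIPEP 1.76 between T3 and T1, and MIPEP 0.98 between T3 and T2.

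Of the 5 genes most like PAM16, 2 were among the 5 by Spearman correlation, 1 with all 15 oocytes and 0 without T3.2 and T3.4, a setting added after the data were seen.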
